A study of Mus musculus with 4 samples.

Results

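The expression of 10 genes of myoblast fusion was followed in muscle stem cells (MuSCs) of adult mice that had been cultured and treated with the secreted bone morphogenetic protein BMP6 for 1 h. The genes were chosen by name: Mymk, Mymx, Jam2, Jam3, Cdon, Boc, Myof, Dysf, Cav3 and Kirrel3, which are 10 of the 55267 entries of the expression table. All 10 were found under these names, and 9 of them had a mean level of at least 1 TPM (transcripts per 1000000, a level corrected for transcript length and library size) over the 4 libraries and were tested. Kirrel3 lay below this level and is described by its values alone. Cells came from pooled forelimb, hindlimb, dorsal and breast muscles of 9-week-old female mice of the genotype C57BL/6N(Tg(Pax7-EGFP)Tajb), in which the Pax7 gene's regulatory sequence drives a green fluorescent protein. They were cultured for 1 day, sorted for the fluorescent protein and cultured for 2 more days with 15% fetal bovine serum in 3% oxygen. Every culture, controls included, then spent 6 h without serum and with a soluble BMPR-1A receptor fused to an antibody Fc part (200 ng/mL), which binds BMPs left in the medium. The BMP6 group (2 libraries) received 100 ng/mL BMP6 for 1 h, and the control group (2 libraries) received its vehicle of 4 mM HCl with 0.1% BSA. Each replicate number in the labels holds 1 BMP6 and 1 control library and is called a batch here.

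During muscle formation and repair, MuSCs become myoblasts, leave the cell cycle, line up through adhesion molecules and merge their membranes to form multinucleated fibers. Myomaker (Mymk) and myomixer (Mymx) are muscle-specific membrane proteins that drive the merging step itself, while immunoglobulin-type surface receptors and junctional adhesion molecules act in cell recognition, and ferlins and caveolin-3 act in the traffic and repair of the muscle cell membrane. BMP signaling acts through SMAD transcription factors and the Id genes and is known to hold back myogenic differentiation.

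In units of 1000000, the libraries held 108 to 112 rebuilt reads each, that is, aligned bases divided by the read length. Pairs of libraries correlated at 0.988 to 0.995 across genes, which are not independent replicates. A pair of known BMP targets marked the treatment in both BMP6 libraries. Id1 was at 584 and 513 TPM against 90.5 and 129 TPM in control (log2 fold change 2.33, SE 0.17, adjusted p = 0.016, limma), and Id3 at 841 and 730 against 127 and 158 TPM (2.46, SE 0.13, adjusted p = 0.010, limma). Among the markers of the labelled cell type, Pax7 was low, at 8.29 to 11.7 TPM, whereas Myog, the transcription factor of terminal myogenic differentiation, was at 4400 to 5472 TPM. Markers of endothelial cells (5 genes, at most 0.143 TPM), Schwann cells (4 genes, at most 0.601 TPM) and immune cells (5 genes, at most 1.68 TPM) were near 0. The fibroblast marker Pdgfra reached at most 0.164 TPM, but the collagen gene Col1a2 reached 240.2 TPM. The 5 pericyte and smooth muscle markers summed to 2955 and 2916 TPM in BMP6 and to 3107 and 3259 TPM in control, so both BMP6 sums lay below both controls. Nearly all of this was Acta2, an actin gene that differentiating muscle cells also express, while Myh11, the smooth muscle myosin, reached at most 0.0239 TPM. In such bulk samples, fewer cells of a type and less RNA per cell cannot be told apart.

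The fusion genes spanned from 1937 TPM to 0.118 TPM in control, and the order of the group means was the same with BMP6 but for Dysf and Jam2. Mymk, Mymx, Cav3 and Jam3 were abundant, and Kirrel3 was close to 0. In control, Myof lay above 53.3% of the tested entries, Dysf above 38.0% and Jam2 above 37.4%. Cdon and Boc were at low levels, above 17.3% and 5.19%. Cdon was the 1 tested member whose 95% interval left out 0 without a block: its mean TPM with BMP6 was 1.77 times that in control. None of the 9 tested members passed an adjusted p of 0.1 in limma without a replicate block, where 0.272% of the 10645 named genes tested did so in either direction and 1 member had an unadjusted p under 0.05 (3.12% of all). With the replicate number as a block, which compares libraries within their batch, 1 member did so, Cdon, beside 1.64% of all named genes. No member reached the 2-fold change that the study's thresholds also ask for, which 0.225% of named genes passed upward and 0.0% downward (79, or 0.742%, had an unadjusted p under 0.05 downward). On the log2(TPM + 1) scale, the 95% interval of the change lay within 2-fold in either direction for all 9 tested members and for 97.5% of all named genes tested. For Cdon this depended on the setting. Its interval was 0.37 to 1.22 with a pseudocount of 0.1 and 0.48 to 1.11 with voom on rebuilt reads. Without the filter on low values it was 0.25 to 1.01. All of these reach past 2-fold.

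**Figure D1:**
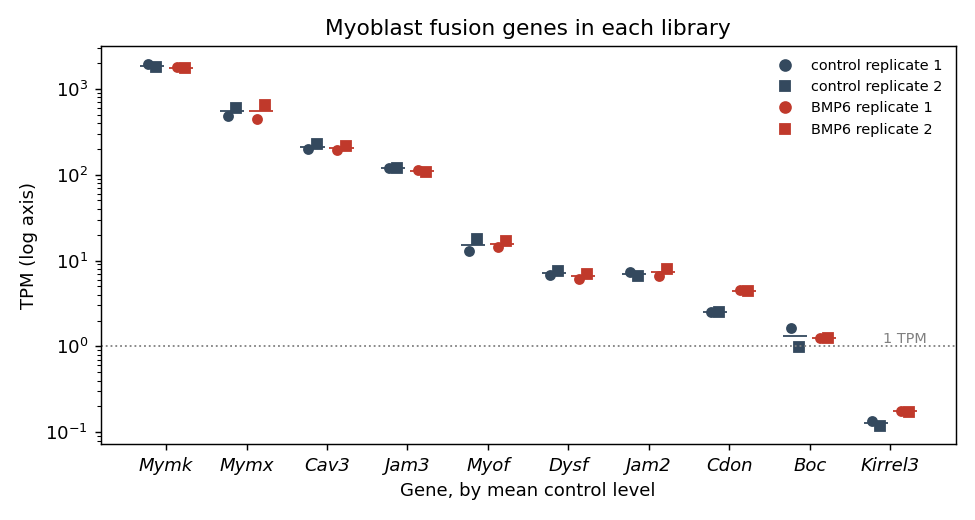
TPM of the 10 fusion genes in each library, on a log axis, ordered by mean control level. Circles are replicate 1, squares replicate 2, gray-blue control, red BMP6, and short lines are group means. Levels fall from 1858 TPM for Mymk to 0.127 TPM for Kirrel3 in control, and the groups stand apart most visibly for Cdon, at 4.49 and 4.42 TPM in BMP6 against 2.50 and 2.54 TPM in control.

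The sequence just upstream of the start sites was read for the members, since muscle regulatory factors such as Myod1 and Myog bind E-boxes. The window ran from 250 bases before to 50 bases after the start of each gene's most abundant transcript (GRCm39, with starts as in the deposited files). The E-box CAGCTG, which reads the same on both strands and is one form of the general E-box CANNTG, stood in the windows of 4 members, including the 3 with the highest levels, and in 14.7% of 10617 windows of named genes tested. These 5 sites are shown because they stand before the starts of the fusogen genes and of the other members that hold this E-box, with the E-box in capitals:
Mymk (chr2:26962204-26962229, minus strand, 28 bases upstream): catggtacatCAGCTGttggaccttc
Mymx, first site (chr17:45913136-45913161, minus strand, 123 bases upstream): caagagggagCAGCTGgaccgaatat
Mymx, next site (chr17:45913104-45913129, minus strand, 91 bases upstream): tgccagaacaCAGCTGttccctcctt
Cav3 (chr6:112436350-112436375, plus strand, 106 bases upstream): ccttcttgggCAGCTGctcctgggag
Jam2 (chr16:84570960-84570985, plus strand, 41 bases upstream): gccctggggaCAGCTGgcagcctagc

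The general E-box CANNTG was present in 7 members and in 61.4% of all windows. A pair of palindromes that SMAD proteins are known to bind, GGCGCC and GTCTAGAC, were in the window of no member and in 21.5% and 0.292% of all windows. These are matches of letters and not sites of measured binding.

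The fusogen genes were measured with large read numbers. Mymk, on chromosome 2 (26951648 to 26962191, minus strand), had 1765 TPM in replicate 1 and 1722 TPM in replicate 2 of BMP6, against 1937 and 1779 TPM in the controls of the same batches. Its control level was above that of 99.6% of the tested entries, and it rested on 142880 to 170768 rebuilt reads per library. Both BMP6 libraries lay below both controls, by little: the means were 1743 ± 30.8 and 1858 ± 112 TPM (SD, n = 2 each). Of the 9 tested members, 2 had both BMP6 libraries below both controls, Mymk and Jam3, and 1 had both above, Cdon, beside 10.8% and 17.4% of all named genes. The log2 fold change of Mymk was -0.09 (95% interval -0.28 to 0.10, adjusted p = 1.00, limma). The block narrowed the interval to -0.18 to -0.0014, which left out 0. Its unadjusted p was 0.0472 and its adjusted p 0.378 (limma). With the block, 2 members, Mymk and Cdon, had an unadjusted p under 0.05, beside 12.7% of all named genes. Of 10 markers of MuSCs and myogenic cells, 8 had log2 fold changes below 0 as well, beside 4607 of the 10645 named genes tested. The other 2 were above 0, by at most 0.17. Des, the muscle intermediate filament, was at 952 and 807 TPM in BMP6 and at 1120 and 955 TPM in control (log2 fold change -0.24, adjusted p = 1.00 without and 0.0312 with the block, limma). It was the 1 marker of the 10 that passed an adjusted p of 0.1 with the block, beside 1.64% of all named genes. The summed level of the 10 markers was 8338 and 8644 TPM in BMP6 and 8663 and 9443 TPM in control, and none was at 0. The pericyte and smooth muscle sum given above, nearly all Acta2, was also lower in both BMP6 libraries. Of the 3 tested markers in that list, 2 had log2 fold changes above 0 and 1 below, with a median of 0.01. Among all named genes tested, 56.7% were above 0. The part of either list in the values of Mymk and Jam3 was not tested. A single transcript carried 99.96% to 99.98% of Mymk in the libraries.

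Mymx, on chromosome 17 (45911897 to 45913028, minus strand), encodes the small peptide that works with myomaker. It was at 450 and 650 TPM in BMP6 and at 484 and 604 TPM in control. Replicate 2 was higher than replicate 1 in both groups, and the groups overlapped. Their means were 550 ± 142 and 544 ± 84.8 TPM (SD, n = 2 each), and the log2 fold change was 0.00 (95% interval -0.47 to 0.47). Within the batches, the difference was -0.11 in pair 1 and 0.11 in pair 2, and the block put the interval at -0.13 to 0.13 (adjusted p = 0.999, limma). In control, Mymk was 3.42 times as abundant as Mymx.

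Cdon and Boc encode related immunoglobulin and fibronectin-type surface receptors that associate with cadherins at myoblast contacts and promote differentiation and that also serve as co-receptors of Hedgehog ligands. Cdon, on chromosome 9 (35332854 to 35418948, plus strand), had 4.49 TPM in replicate 1 and 4.42 TPM in replicate 2 of BMP6, against 2.50 and 2.54 TPM in the matching controls. The spread within each group was small, with means of 4.45 ± 0.0461 and 2.52 ± 0.0269 TPM (SD, n = 2 each), and the groups stood far apart. These levels rested on 2047 and 1969 rebuilt reads in BMP6 and on 1187 and 1154 in control. The log2 fold change on the log2(TPM + 1) scale, which understates changes at such low levels, was 0.63 (SE 0.14, 95% interval 0.29 to 0.97). Its unadjusted p was 0.00379, and its adjusted p over all genes was 0.637 (limma). With the replicate block, the SE was 0.12, the interval 0.37 to 0.89 and the adjusted p 0.0420 (limma). The difference was alike in both batches, 0.65 in pair 1 and 0.61 in pair 2. Only 0.752% of named genes tested, 80 entries, had a log2 fold change at least as high as that of Cdon.

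**Figure D2:**
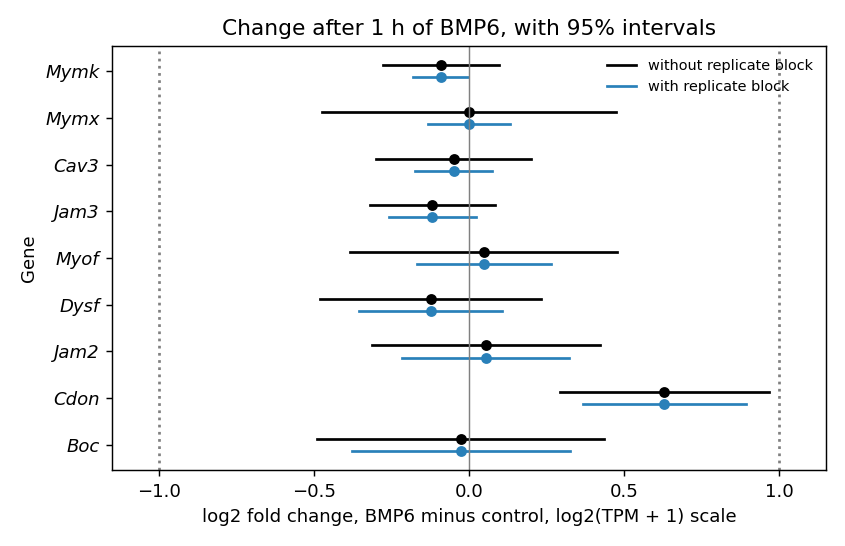
Log2 fold change of the 9 tested members on the log2(TPM + 1) scale, BMP6 minus control, with 95% intervals from limma without (black) and with (blue) the replicate block. Dotted lines mark 2-fold changes. The intervals of Cdon, 0.29 to 0.97 and 0.37 to 0.89, lie above 0, and those of the other members include 0 in the fit without the block.

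The Cdon difference was followed along the gene after its values had been seen. The deposited transcripts divide Cdon into 20 exonic blocks, and in 17 of them both BMP6 libraries had more coverage than both controls. Coverage is given as mean depth of aligned bases, scaled to the same number of rebuilt reads in every library. Block 2, at chr9:35363341-35363473 and centered 30.6 kb from the first start, showed the highest ratio of group means, 2.63, with depths of 36.8 and 40.7 in BMP6 and 14.9 and 14.6 in control. Block 1, the first exon of the long transcript, had low coverage and overlapping groups, at 3.14 and 6.46 in BMP6 and 4.25 and 2.94 in control. Block 19 was the only one with a ratio below 1 (0.856), also at low depth. The blocks thus differed in how far the groups stood apart, and the excess in BMP6 was spread along most of the gene.

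Split at the middle of its span, Cdon had 795 and 729 rebuilt reads in BMP6 and 398 and 396 in control in the upstream part (ratio 1.94). The downstream part had 1253 and 1241 reads in BMP6 and 789 and 759 in control (ratio 1.63). The upstream excess over the downstream one was 0.25 on the log2 scale, and it was 0.33 in pair 1 and 0.17 in pair 2. Among 1907 named genes of at least 50 kb and with at least 100 reads, the same quantity had a median of -0.04 and a range from -0.35 to 0.19 between the 5th and the 95th percentile. The other members of this length with such read numbers were Jam2 at 0.16, Jam3 at 0.00, Dysf at -0.05 and Myof at -0.19. Cdon was therefore the one of these 5 members outside that range, as a description without a test.

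**Figure D3:**
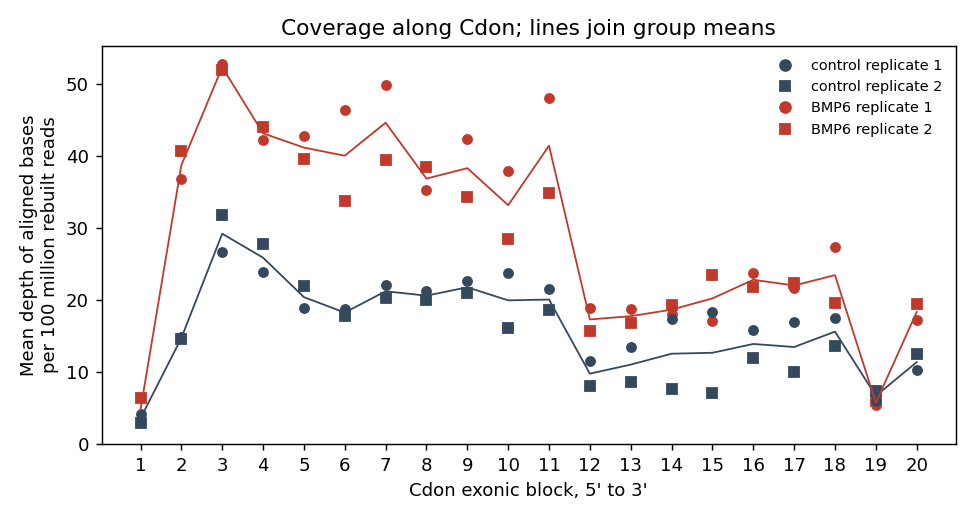
Coverage of the 20 exonic blocks of Cdon in 5′ to 3′ order, as mean depth of aligned bases, scaled to the same number of rebuilt reads in every library. Points are libraries and lines join group means. Both red points lie above both gray-blue points in 17 blocks, with the exceptions of blocks 1, 15 and 19.

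The deposited files name 2 transcripts of Cdon, which start in block 1 and in block 2. The long one (ENSMUST00000119129) was at 1.06 and 3.10 TPM in BMP6 and 1.89 and 1.43 TPM in control. The short one (ENSMUST00000042842) was at 3.42 and 1.32 TPM in BMP6 and at 0.614 and 1.11 TPM in control. The share of the short transcript ranged from 24.5% to 76.3% of Cdon and differed more between the BMP6 libraries than between the groups, so the gene level was steadier than its division into transcripts.

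Boc, on chromosome 16 (44305412 to 44379260, minus strand), was at 1.24 and 1.25 TPM in BMP6 and at 1.65 and 0.976 TPM in control. The control libraries enclosed both BMP6 values. The log2 fold change was -0.03 (SE 0.19, 95% interval -0.49 to 0.44). The Cdon estimate of 0.63 lay outside this interval, but the interval of Cdon, 0.29 to 0.97, overlapped it. The difference between the changes of Cdon and Boc was itself not tested. Kirrel3, on chromosome 9 (34397422 to 34948012, plus strand), encodes a surface protein related to the fly receptors of myoblast recognition. It was at 0.176 and 0.174 TPM in BMP6 and 0.136 and 0.118 TPM in control. Both BMP6 values were the higher ones, but they rested on 42 and 43 rebuilt reads against 34 and 30, and Kirrel3 was too low to enter the test.

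The junctional adhesion molecules JAM-B (Jam2) and JAM-C (Jam3) bind each other across the contact of neighboring cells. Jam3, on chromosome 9 (27008680 to 27066689, minus strand), was at 113 and 107 TPM in BMP6 and at 120 and 119 TPM in control. Both BMP6 libraries lay below the controls, with means of 110 ± 4.01 and 119 ± 0.593 TPM (SD, n = 2 each). The log2 fold change was -0.12 (95% interval -0.32 to 0.08, adjusted p = 1.00 without and 0.471 with the block, limma). Of the exonic bases of Jam3, 20.3% overlap the antisense RNA Gm48796, which reached at most 15.0 TPM, and the unstranded reads of these genes cannot be told apart there. Jam2, Cdon, Boc and Dysf also overlap other genes, by at most 5.57% of their exonic bases with any 1 gene. For Jam2 this was 4.38%, with the antisense protein-coding gene Atp5pf, which had no entry of that name. Jam2, on chromosome 16 (84571011 to 84622816, plus strand), was at 6.58 and 8.01 TPM in BMP6 and at 7.29 and 6.65 TPM in control. The groups overlapped, and the log2 fold change was 0.05 (95% interval -0.31 to 0.42). Jam3 was thus the predominant one of this receptor pair in every library.

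Myoferlin (Myof) and dysferlin (Dysf) are calcium-binding ferlins of membrane fusion and repair, and caveolin-3 (Cav3) is the muscle form of the protein that shapes caveolae and is a partner of dysferlin. Cav3, on chromosome 6 (112436466 to 112449833, plus strand), was at 193 and 214 TPM in BMP6 and at 197 and 225 TPM in control. The groups overlapped, with a log2 fold change of -0.05 (95% interval -0.30 to 0.20). Dysf, on the same chromosome (83985572 to 84188042, plus strand), was at 6.02 and 7.02 TPM in BMP6 and 6.76 and 7.60 TPM in control. Replicate 1 was the lower one in both groups, and the log2 fold change was -0.12 (95% interval -0.48 to 0.23).

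Myof, on chromosome 19 (37887484 to 38032025, minus strand), was at 14.5 and 16.8 TPM in BMP6 and at 12.9 and 17.6 TPM in control. The controls enclosed the BMP6 values, and the log2 fold change was 0.05 (95% interval -0.38 to 0.48). The groups stood apart in its division into transcripts. ENSMUST00000041475 held 46.0% and 47.7% of Myof in BMP6 and 37.3% and 35.2% in control. The share of ENSMUST00000226068 was the reverse, at 53.3% and 51.8% against 61.4% and 63.6%. These shares are estimates for transcripts with nearly the same ends and were not tested. The 12 transcripts of Dysf divided its reads differently in every library, and the share of ENSMUST00000113821 ranged from 1.57% to 70.3%.

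In the order of control levels, from Mymk through Mymx, Cav3, Jam3, Myof, Dysf, Jam2, Cdon and Boc to Kirrel3, neighbors kept apart in all 4 libraries with 1 exception. Dysf and Jam2 overlapped, and their control means differed by 1.03 times. The widest steps were those from Boc to Kirrel3, 10.3 times, and from Jam3 to Myof, 7.83 times. Of the tested members, 4 had a log2 fold change above 0, beside 56.7% of all named genes, and the median over the 9 was -0.03, beside 0.02 over all named genes tested. The sign of Mymx, with a change of nearly 0, turned under quantile normalization.

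The genes most like the fusogen genes were sought by the root mean square difference of log2(TPM + 1) over the 4 libraries, after removal of each gene's mean, among 2808 named genes with a mean of at least 50 TPM. Those nearest to Mymk were Dmpk (0.0078), Gemin6 (0.0092) and Eci1 (0.010). Those nearest to Mymx were Lima1 (0.027), Ankrd2 (0.028) and Celf2 (0.030). Like Mymx, whose values they were selected to match, all were higher in replicate 2 than in replicate 1 in both groups. These are likenesses over 4 libraries that share 2 batches, and no test was made.

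Other genes of fusion were taken from a list of 95 in 6 groups, of which 92 were found by name and 74 were tested. Arhgap26, Capn3 and Ntn3 had no entry of that name. None of the 74 passed an adjusted p of 0.1 on log2(TPM + 1) in limma without or with the block, where 0.272% and 1.64% of all named genes did. An unadjusted p under 0.05 was seen for 1 gene without the block and for 11 with it, beside 3.12% and 12.7% of all named genes. In voom on rebuilt reads with the block, 1 of the 74 passed, Gas1 (adjusted p = 0.0895, limma), beside 243 of the 10645 named genes. Of the 74, 47 had a log2 fold change above 0, and their median was 0.03.

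Cdon and Boc work with neogenin, Gas1 and a cascade that leads through Cdc42 to the kinase p38. Of 13 such partners, 8 were tested, with a median log2 fold change of 0.04. Gas1, a Hedgehog co-receptor like Cdon and Boc, was at 38.6 and 28.0 TPM in BMP6 and 46.3 and 35.3 TPM in control. It was lower with BMP6 in each batch, but the groups overlapped (log2 fold change -0.29, SE 0.20, adjusted p = 1.00 without and 0.163 with the block, limma). Neo1, the neogenin gene, was at 4.51 and 5.57 TPM in BMP6 and at 4.75 and 4.08 TPM in control, again with overlap. Cdc42, a small GTPase of actin assembly that is also counted with the actin genes, was at 756 and 804 TPM in BMP6 and at 709 and 708 TPM in control (log2 fold change 0.14, SE 0.07, adjusted p = 0.269 with the block, limma). The ligand gene Shh was listed at 0 in every library.

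Actin remodeling pushes the membranes together at the fusion site. Of 28 genes of this group, 24 were tested, and 21 of them had a log2 fold change above 0, beside 56.7% of all named genes, with a median of 0.10, beside 0.02. Both BMP6 libraries lay above both controls for 6 of the 24, beside 17.4% of all named genes. Actr2, a subunit of the Arp2/3 complex that nucleates actin branches, was at 36.4 and 39.3 TPM in BMP6 and at 32.4 and 30.4 TPM in control. It was the 1 listed gene with an unadjusted p under 0.05 (log2 fold change 0.26, SE 0.10, adjusted p = 1.00, limma). The highest change in the group was that of Iqsec1, an exchange factor for ARF GTPases, at 3.80 and 4.12 against 2.85 and 3.22 TPM (0.30, SE 0.14). The lowest was that of Flnc, the muscle filamin, at 17.3 and 15.4 against 16.4 and 20.3 TPM (-0.15, SE 0.15).

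Adhesion molecules and tetraspanins were balanced, with 9 of the 15 tested genes above 0 and 6 below. Cd164, a sialomucin, had the highest change at 315 and 393 TPM in BMP6 against 292 and 306 TPM in control (log2 fold change 0.24, SE 0.12). Itga7, the integrin subunit of the laminin receptor in muscle, had the lowest at 222 and 175 against 251 and 203 TPM (-0.19, SE 0.15), where each batch went down and the groups overlapped. The most abundant was Cd81, a tetraspanin, with a log2 fold change of 0.02. Of the 6 tested genes for phosphatidylserine recognition and annexins, all changes lay between -0.05 and 0.05, including those of Anxa2, Anxa6 and Stab2.

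Of the 11 tested partners of ferlins and caveolins, 5 were above 0 and 6 below. Ehd1, a membrane traffic protein that binds ferlins, was at 26.7 and 23.6 TPM in BMP6 and below both controls, at 29.3 and 29.0 TPM (log2 fold change -0.21, SE 0.11, adjusted p = 0.353 with the block, limma). Cav2, a caveolin, was above both controls with 20.3 and 22.6 against 20.1 and 19.3 TPM (0.12, SE 0.11). S100a10, the annexin partner and the most abundant of the group, overlapped between the groups (-0.02, SE 0.15). Of the 11 tested transcription and cytokine genes upstream of fusion, 7 were above 0. Mrtfa, an actin-regulated coactivator, was at 3.58 and 4.02 against 4.38 and 4.85 TPM (-0.23, SE 0.14), and Nfatc2, a calcium-regulated factor, at 1.37 and 1.05 against 0.972 and 0.834 TPM (0.21, SE 0.16). Myog, which had the highest level, differed by -0.07 (SE 0.12) with overlapping groups.

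**Figure D4:**
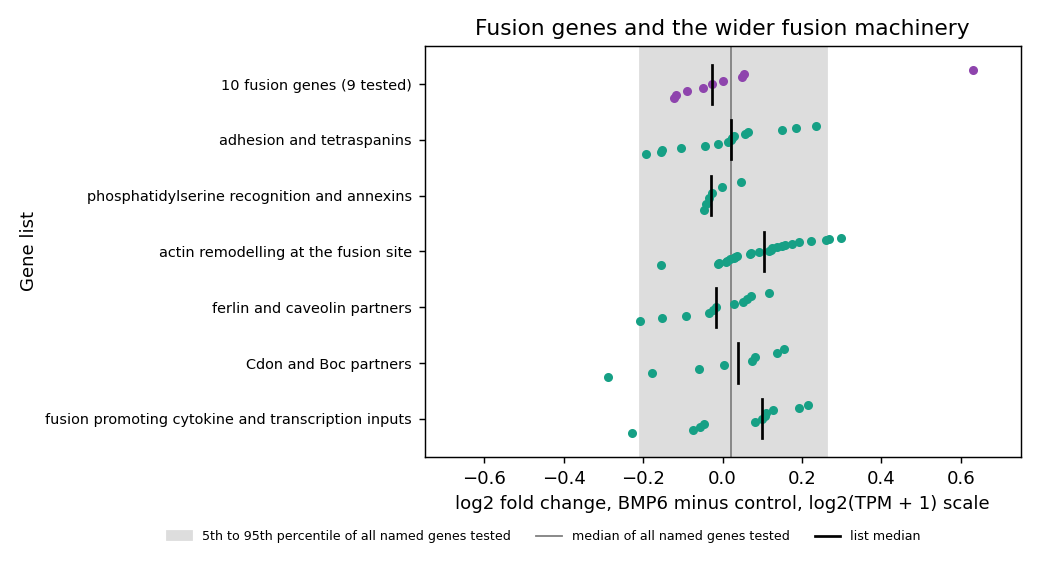
Log2 fold change, BMP6 minus control, on the log2(TPM + 1) scale for the 9 tested fusion members (purple) and the 6 groups of the wider list (green). Each point is a gene, black bars are list medians, the gray band spans the 5th to the 95th percentile of all 10645 named genes tested (-0.21 to 0.26), and the gray line is their median (0.02). Cdon is the purple point at 0.63, apart from all other points.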

How the data were processed

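RNA-seq libraries of polyA RNA (full-length cDNA, amplified, unstranded, no molecular identifiers) came from 2 BMP6 and 2 control cultures, grouped by their labels. The submitters' processing notes and the methods of the study name STAR 2.7.11a for the alignment of paired reads of 100 bases to GRCm39 (GENCODE M32), SAMtools 1.17 and StringTie 2.2.1, with which the authors merged the assembled transcripts and then quantified them in every library. The authors deposited TPM and FPKM per gene and, for each library and transcript, a signal, the coverage, which is the mean depth of aligned bases and is not scaled to library size. The authors also deposited other attributes of transcripts and exons in annotation files, from which transcript TPM and exon coverage were read.

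The study's own test ran on counts rebuilt from coverage. The deposited tables give TPM, so the main test here was another one: limma 3.58.1 (R 4.3.3; lmFit, eBayes with trend, two-sided) on log2(TPM + 1) with no block. Voom on rebuilt reads was an alternative. Entries had to reach 1 TPM on average, which 13128 did, and p-values were adjusted over these by Benjamini and Hochberg. Calls needed an adjusted p under 0.1 and a fold change of 2 or more, or of 0.5 or less. Entries without a name and names such as Gm or Rik entries (2483) stayed in the fit and out of counts of named genes. Rebuilt reads are coverage times length divided by 100, and they count aligned bases, not molecules. Same-numbered libraries deviated together from their group means (correlation 0.563 across genes). Fits with the replicate number as a block are therefore given where they change a call, and also for some other genes. With 2 libraries per group, an exact permutation test cannot go below p = 0.333. Start windows were read from GRCm39 at the deposited transcript starts. Overlapping genes were read from GENCODE M39, in which all 35 member transcripts were found, 10 of them with the same start and end as deposited. Named genes were all members and, per group of the wider list, the genes with the highest level, the largest rise and the largest fall. Actr2 and the transcripts were named after their values were seen. Single cell type markers, Des among them, were named outside this rule. The members and lists were chosen with earlier results of these data known. Python 3.11.15, pandas 2.3.3 and numpy 2.4.6 were used.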

Additional observations from a re-analysis of the deposited data

How the results depend on the processing

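Cdon kept its direction under all 13 alternatives that could be run, with log2 fold changes of 0.33 to 0.80 and adjusted p of 0.00576 to 1.00 (limma). The filter at a mean TPM of 5 removed it. It passed an adjusted p of 0.1 with the replicate block and with the block in voom fits of rebuilt reads, so 1 member passed in each against 0 otherwise. Of the 10645 named genes, 175 and 243 passed in these fits. In the wider list 1 gene passed, Gas1, with voom and the block only (adjusted p = 0.0895). Without any one library, Cdon stayed between 0.62 and 0.64 with adjusted p of 0.693 to 1.00, where the lone library of a group is assumed to vary like the other group. Voom fits on the upstream and the downstream part of the gene span, added after the data were seen, gave Cdon 0.97 (adjusted p = 0.217) and 0.70 (adjusted p = 0.566).

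The number of genes called was 24. It was 37 with the replicate block, 63 with voom and the block, 15 for a pseudocount of 5, also 15 where a mean TPM of 5 was required, 12 without the trend, and 0 without a filter on low values (511 had an unadjusted p under 0.05), and it ranged from 18 to 34 without single libraries. The block changed no other call of the members or the wider list.

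Changes near 0 turned sign. Mymx was at -0.00071 with quantile normalization, -0.025 with FPKM, -0.015 with voom, -0.011 with voom and the block, -0.060 in the upstream and -0.017 in the downstream part, and Myof at -0.11 in the upstream part. Anxa2 went to 0.022 and Myog to 0.055 with quantile normalization, and Cd81 to -0.0017 with FPKM. Without single libraries, Mymx ranged from -0.27 to 0.27, Jam2 from -0.071 to 0.18, Boc from -0.24 to 0.19, Myof from -0.16 to 0.26, Cav3 from -0.14 to 0.045, Anxa2 from -0.18 to 0.12, Anxa6 from -0.12 to 0.025, Cd81 from -0.050 to 0.098, Myog from -0.22 to 0.075, S100a10 from -0.20 to 0.16 and Stab2 from -0.054 to 0.15. The cause of these shifts was not tested. With 2 libraries per group, the changes of low genes such as Boc are known only to within the intervals given.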
